A study of Homo sapiens with 8 samples.

Results

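Histone cluster genes are the protein-coding genes whose symbols begin with HIST1H, HIST2H, HIST3H or HIST4H in the files, which use the older gene names. They were chosen by symbol and gene type alone, without use of any measured value. There are 56 of them among the 34164 genes of either table, 17306 of which are protein-coding. By histone type there are 4 genes for the linker histone H1 and, for the core histones, 12 genes for H2A, 15 for H2B, 12 for H3 and 13 for H4. The HIST1 group holds 41 genes on chromosome 6, the HIST2 and HIST3 groups hold 11 and 3 genes on chromosome 1, and HIST4H4 lies on chromosome 12. All 56 genes are listed in the inhibitor table and 54 in the knockdown table, which has no values for HIST1H4D and HIST2H3A that were used here.

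RNA was measured in Kyse510, an established human cell line of esophageal squamous cell carcinoma, in 8 libraries with 1 library for each condition. In the inhibitor experiment, cells received vehicle (DMSO), the LSD1 inhibitor SP2509 at 7 µM, the G9a inhibitor UNC0642 at 7 µM, or both compounds, and RNA was taken after 2 days. The series gives no separate doses for the combination. In the knockdown experiment, all cells carried a lentiviral, doxycycline- (Dox-) inducible hairpin against LSD1 (the gene KDM1A) or G9a (the gene EHMT2), and had been kept under puromycin for 14 days. Each of these lines was sequenced without Dox and after 2 days with Dox, and the library without Dox is the control, so that a response to Dox itself cannot be told apart from a response to the hairpin. LSD1 removes methyl groups from histone H3, and G9a adds them to it. A single hairpin was used for each gene.

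The core histones form the protein spool around which DNA is wound, and H1 binds the DNA between the spools. Most genes of the histone clusters are transcribed in S phase, when new chromatin has to be assembled, and their mRNAs end in a conserved stem-loop in place of a poly(A) tail. The stem-loop is bound by the protein SLBP, and the pre-mRNA is cut behind it with the help of the U7 snRNP. Some cluster genes also give polyadenylated transcripts, which can be made outside S phase and are retained when RNA is selected by its poly(A) tail. From general knowledge, 9 members were put on a list of genes known for such transcripts, namely HIST1H1C, HIST1H2AC, HIST1H2BC, HIST1H2BD, HIST1H2BJ, HIST1H2BK, HIST1H4H, HIST2H2BE and HIST3H2A. Whether these libraries were selected by poly(A) tail is not given in the sources used here.

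The stem-loop is shown because it is the feature that these genes share and that most other mRNAs lack. It was searched for in the human genome (hg38) in the 120 bases that follow each stop codon as annotated in GENCODE 44, as 16 bases that form a stem of 6 pairs and a loop of 4. The search also required GG at the start, CC at the end, a T and an A next to the loop, and mostly T early in the loop. Part of the likeness of the sequences found is thus set by the search. The stem-loop was found in 56 of 56 members, 23 to 68 bases after the stop codon with a median of 36. The capitals mark the loop, and the sequences of 4 members with high levels or large changes follow, with the bases as the mRNA reads and T written for U.
HIST1H2BK (H2B, chr6:27146366-27146381, minus strand): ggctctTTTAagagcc
HIST1H1C (H1, chr6:26055744-26055759, minus strand): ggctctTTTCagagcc
HIST1H4H (H4, chr6:26285131-26285146, minus strand): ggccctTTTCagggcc
HIST1H4I (H4, chr6:27139654-27139669, plus strand): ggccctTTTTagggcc

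The 56 members had 8 different stem-loops. The form shown for HIST1H1C occurred in 32 members and that shown for HIST1H2BK in 8. All 13 H4 genes had a stem that starts with ggccct, and no other member did. The gene models behind the deposited values treat this region unevenly. In 28 members the deposited gene ended before the last base of the stem-loop, in 7 it ended up to 99 bases beyond it, and in 21 it ran on for 100 bases or more. HIST1H2BK, for example, was counted over 381 bases (chr6:27146418-27146798), which is its coding sequence with the stop codon, whereas the model of HIST1H2AC spans 14972 bases (chr6:26124145-26139116) and includes sequence far behind its stem-loop. Of the 9 listed genes, 7 had a model of the long kind.

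The sequences before the start sites of 4 members with high levels or large changes are shown next, because neighbouring genes that share such a region differed widely in level. Each is the 200 bases that precede the start site in RefSeq (GRCh38.p14), read along the strand of the gene. Capitals mark the TATA box (TATAAA), the CCAAT box (CCAAT) and the octamer (ATTTGCAT), searched on both strands. Matches to different motifs may share bases.
HIST1H2BK (chr6:27146859-27147058, minus strand): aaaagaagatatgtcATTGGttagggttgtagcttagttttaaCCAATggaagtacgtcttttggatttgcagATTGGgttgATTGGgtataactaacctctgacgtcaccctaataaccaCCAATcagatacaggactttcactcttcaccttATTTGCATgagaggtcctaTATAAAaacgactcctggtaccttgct
HIST1H2AC (chr6:26123972-26124171, plus strand): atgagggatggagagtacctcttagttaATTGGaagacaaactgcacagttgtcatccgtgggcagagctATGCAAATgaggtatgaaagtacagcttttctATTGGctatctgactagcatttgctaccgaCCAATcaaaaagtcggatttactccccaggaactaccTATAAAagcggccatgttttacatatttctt
HIST3H2A (chr1:228457874-228458073, minus strand): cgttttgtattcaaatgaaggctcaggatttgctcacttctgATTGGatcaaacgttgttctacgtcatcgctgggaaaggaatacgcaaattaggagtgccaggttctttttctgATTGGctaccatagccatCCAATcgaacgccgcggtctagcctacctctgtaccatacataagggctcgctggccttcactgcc
HIST1H4H (chr6:26285535-26285734, minus strand): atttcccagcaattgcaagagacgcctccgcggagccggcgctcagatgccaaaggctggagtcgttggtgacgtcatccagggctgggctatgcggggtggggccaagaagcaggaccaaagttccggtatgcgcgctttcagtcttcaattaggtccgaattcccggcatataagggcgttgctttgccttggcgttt

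HIST1H2BK and HIST1H2AC hold all of these motifs, HIST3H2A holds the CCAAT box alone, and HIST1H4H holds none of them in the window shown. Windows from 250 bases before to 50 bases after the start site were given for 48 members. The TATA box was found in 32 of these (66.7%), beside 12.0% of the 27305 windows of all genes. The CCAAT box was found in 40 (83.3%), beside 35.7% of all windows, and only 3 of the 11 H4 windows held it. The octamer was found in 7 of 11 H2A and 8 of 12 H2B windows, in none of the H1, H3 and H4 windows searched, and in 1.80% of all windows. These are matches of letters and not measured binding sites.

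The files give FPKM, a fragment count divided by gene length in kilobases and by library size. The steps between low FPKM values gave the library totals, which ranged from 15662035 to 17889466 reads, and with them the reads behind each value. KDM1A was at 25.98 FPKM in the shLSD1 line without Dox and at 6.29 FPKM with Dox, a ratio of 0.242 (95% interval 0.221 to 0.265). EHMT2 was at 7.85 FPKM in the shG9a line without Dox and at 4.76 FPKM with Dox, a ratio of 0.607 (0.547 to 0.673), while KDM1A went from 26.4 to 35.8 FPKM in the same line. In the inhibitor libraries KDM1A ranged from 32.0 to 40.7 FPKM, and EHMT2 was at 11.1 FPKM with vehicle, 10.2 under SP2509, 10.3 under UNC0642 and 5.38 under both. All 7 squamous epithelial markers were detected in all 8 libraries, at uneven levels. KRT5 was at 74.6 to 734 FPKM, KRT17 at 158 to 3716, TP63 at 18.3 to 127 and DSG3 at 5.57 to 28.6. KRT14 was at 1.10 to 10.1 FPKM, KRT6A at 0.676 to 20.0 and SOX2 at 0.313 to 38.8. PTPRC of leukocytes lay at or below 0.0425 FPKM. PECAM1 of endothelial cells lay at or below 0.569 FPKM, which is above the lowest SOX2 value. COL1A1 of fibroblasts was at 2.92 to 5.36 FPKM and COL3A1 at 0.0339 to 1.501 FPKM, and their part in the results was not tested. Ratios are of reads per library total, and their intervals (Clopper-Pearson, 95%) cover counting error only. With 1 library per condition there is no replicate check, so that a ratio compares 2 libraries and not 2 conditions.

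Few members carried most of the signal. The mean over the libraries was at least 10 FPKM in 4 members and at least 1 FPKM in 21, and 22 members had fewer than 10 reads in every library. The median of the members' mean levels was 0.704 FPKM for H1, 1.26 for H2A, 0.876 for H2B, 0.422 for H3 and 0.366 for H4. The 4 most abundant members held between 64.5% and 81.5% of the reads of all members, depending on the library. H3, with 12 genes, had 1.96% of the members' reads, and its highest gene, HIST1H3H, had a mean of 2.997 FPKM. The 9 listed genes held 86.2% of the members' reads and had a median of 8.65 FPKM, whereas the other 47 had a median of 0.497 FPKM and a highest mean of 7.45 FPKM (HIST1H4I). The listed genes were chosen from general knowledge with earlier results of these data known, and HIST1H2BD, which is on the list, had only 34 reads in all 8 libraries.

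**Figure D1:**
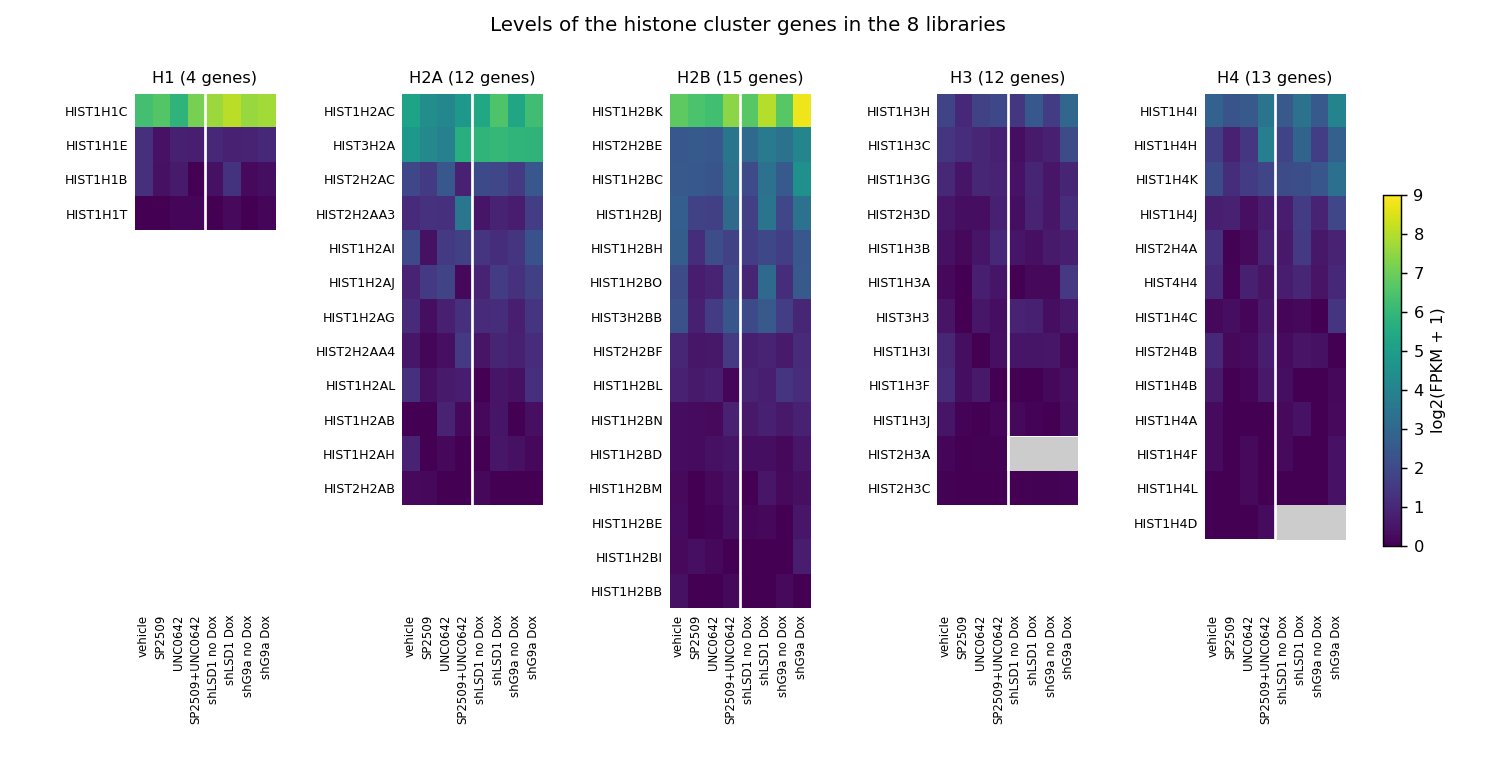
Level of each of the 56 histone cluster genes (rows, by histone type and in order of mean level) in the 8 libraries (columns), as log2(FPKM + 1) in colour. Grey cells are genes with no value used here in the knockdown table, and the white line separates the 2 tables. The 4 rows with the lightest colours are HIST1H1C, HIST1H2AC, HIST3H2A and HIST1H2BK, and most other cells lie at the dark end of the scale.

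HIST1H2BK, an H2B gene, had the highest mean level. It was at 109 FPKM with vehicle, 86.1 under SP2509, 76.4 under UNC0642 and 171 under both compounds. In the knockdown table it was at 101 FPKM in the shLSD1 line and 100.1 in the shG9a line without Dox, and at 257 and 436 with Dox. Both induced libraries lay above all others, the combination lay above its vehicle, and either inhibitor alone lay below it.

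HIST1H1C encodes the linker histone H1.2 and was second. Its levels were 79.3 FPKM with vehicle, 95.4 under SP2509, 56.4 under UNC0642 and 143 under both compounds. They were 200.4 FPKM without and 267 with Dox in the shLSD1 line, and 195 without and 215 with Dox in the shG9a line. The uninduced lines lay above each of the 4 inhibitor libraries, but the tables were normalised separately and levels across them were not tested. The other H1 genes lay far lower, with means of 0.847 FPKM for HIST1H1E and 0.561 for HIST1H1B.

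Of the H2A genes, HIST1H2AC was at 36.5 FPKM with vehicle, 20.6 under SP2509, 17.1 under UNC0642 and 27.2 under both, and at 41.6 and 90.02 FPKM without and with Dox in the shLSD1 line, with 37.7 and 74.5 FPKM for shG9a. HIST3H2A was at 26.5 FPKM with vehicle, 17.7 under SP2509, 14.2 under UNC0642 and 48.9 under both. In the knockdown libraries HIST3H2A kept to a narrow range, from 57.3 to 62.5 FPKM. These genes thus had nearly equal means (43.1 and 42.9 FPKM) and different patterns, as the levels of 6 members by library show.

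**Figure D2:**
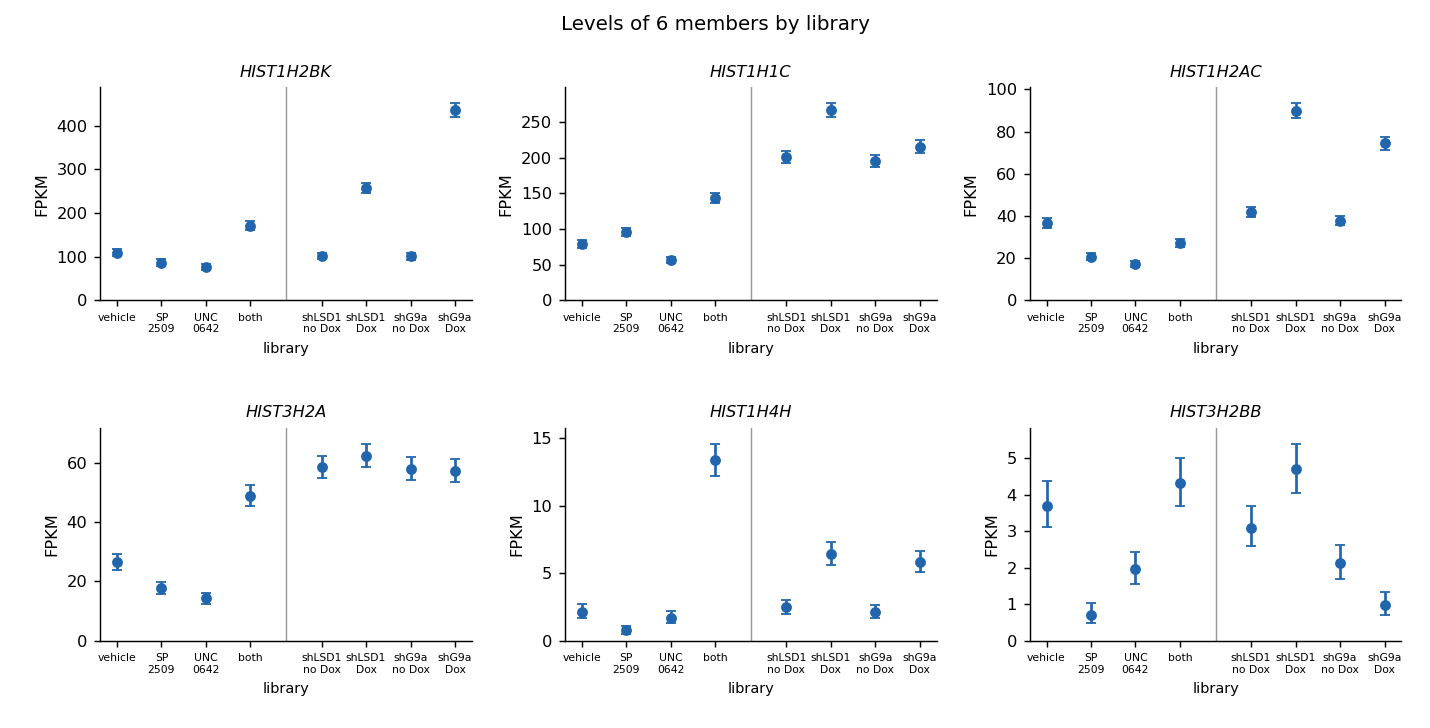
Levels of 6 members in FPKM (linear axis from 0) in each of the 8 libraries, with exact Poisson 95% intervals of the reads behind each point, which cover counting error only. The grey line separates the 2 tables. HIST1H2BK is highest in the shG9a library with Dox (436 FPKM), HIST1H4H with both inhibitors (13.4 FPKM), and HIST3H2BB differs in direction between the induced lines.

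Many H2A and H2B genes lie head to head and share the region between their start sites. There were 8 head-to-head pairs of members whose gene models lie within 500 bases, and the levels of the partners differed. All join an H2A and an H2B gene except HIST1H3J with HIST1H2BO. Distances are between the ends of the deposited gene models and not between start sites. HIST1H2BK had 8754 reads in the 8 libraries together, and HIST1H2AH, 330 bases away on the other strand, had 12, on gene models of 381 and 387 bases. HIST3H2A and its partner HIST3H2BB, 233 bases apart, had mean levels of 42.9 and 2.70 FPKM. HIST1H2AC and HIST1H2BC, 218 bases apart, had 43.1 and 7.72 FPKM. The models of the partners do not overlap, but coding sequences of the members are alike. In 4 cases a pair of members has identical coding sequences, namely HIST1H4J and HIST1H4K, HIST2H2AA3 and HIST2H2AA4, HIST2H3A and HIST2H3C, and HIST2H4A and HIST2H4B, and how the authors' counting shared reads between such copies is not given in the sources used here. The values of these members are therefore uncertain. So are those of members whose models overlap another gene, such as HIST2H2BF and HIST1H2BN.

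For the comparisons, each treated library was set against its own control. A gene entered if its mean over the 4 libraries of the table was at least 1 FPKM, and it was called higher or lower if the ratio of FPKM + 1 was at least 1.3 in that direction. This left 19 members in the inhibitor table and 22 in the knockdown table, so that 34 of the 56 entered no comparison. To account for all members, summed reads in RPM (the usual scaling of reads by the library total, without the gene's length) and the direction of each member's reads are given as well, whether or not a member passed the filter.

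**Figure D3:**
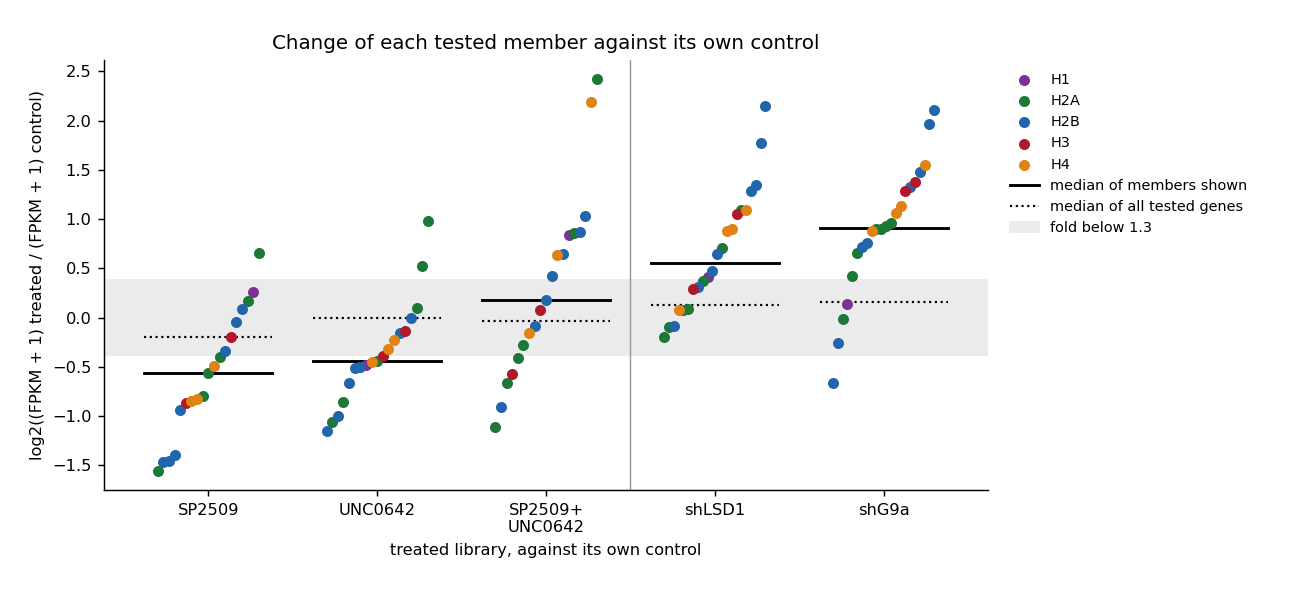
Change of every member that entered a comparison (points, coloured by histone type, in order of size within each comparison) on the scale log2((FPKM + 1) treated / (FPKM + 1) control). Solid lines are the medians of the members shown, dotted lines the medians of all genes tested, and the grey band holds folds below 1.3. The median of the members lies below that of all genes with SP2509 (-0.56 and -0.19) and UNC0642 and above it in both knockdowns.

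With SP2509, histone cluster genes were mostly lower than with vehicle. Of 19 members tested, 12 were lower (63.2%) and 1 was higher, beside 38.1% lower and 19.3% higher among all 12375 genes tested. The median log2 change was -0.56, beside -0.19 for all genes. Scaled reads were lower in 45 of the 56 members, 3 of which had equal reads before scaling, and higher in 7, beside 51.6% lower and 32.6% higher among all 31582 genes of the table. The 9 listed genes together went from 201 to 163 RPM, a ratio of 0.811 (0.770 to 0.853), and the 47 others from 60.02 to 20.9, a ratio of 0.348 (0.308 to 0.393). Without HIST1H1C the ratio of the listed genes was 0.677 (0.637 to 0.720). The list was drawn up with earlier results of these data known, so that the contrast with SP2509 is a description only. By type, the ratio of summed reads was 1.17 for H1 (1.07 to 1.28), 0.582 for H2A (0.536 to 0.632), 0.657 for H2B (0.606 to 0.714), 0.389 for H3 (0.279 to 0.535) and 0.388 for H4 (0.318 to 0.473). The H1 value rests on HIST1H1C, and without it the ratio of the other H1 genes was 0.264 (0.110 to 0.570). Without HIST1H4I the H4 ratio was 0.223 (0.162 to 0.303).

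HIST1H2BH, an H2B gene off the list, went from 169 to 46 reads (5.24 to 1.25 FPKM) with SP2509, a ratio of 0.239 (0.169 to 0.333). HIST3H2BB went from 137 to 30 reads, a ratio of 0.193 (0.125 to 0.288). HIST1H2AI went from 23 to 3 reads, a ratio of 0.115 with a wide interval (0.0221 to 0.3798). The H3 gene HIST1H3H went from 51 to 22 reads, a ratio of 0.379 (0.219 to 0.637). Among the members with high levels, HIST1H2AC had a ratio of 0.565 (0.510 to 0.626) and HIST3H2A of 0.667 (0.569 to 0.781). HIST1H1C was not called, and its ratio of 1.203 (1.10 to 1.32) lay on the other side of 1. HIST2H2BE, at 4.48 and 4.84 FPKM, and HIST1H2BC, at 4.67 and 4.51 FPKM, were not called either. The 1 member called higher, the H2A gene HIST1H2AJ, rested on 5 and 13 reads and its interval (0.765 to 8.19) included 1. It was at 0.825 FPKM with vehicle and passed the filter through libraries where it was high. Below the filter, and chosen after their values were seen, the H4 genes HIST2H4A and HIST4H4 went from 38 to 1 read and from 40 to 3 reads. In bulk RNA, fewer cells that express these genes and less RNA of them per cell cannot be told apart.

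With UNC0642, histone cluster genes were mostly lower than with vehicle, and the summed reads of the listed genes and of the others were both lower. Of the 19 members, 11 were lower (57.9%) and 2 higher, beside 14.8% lower and 17.8% higher among all genes. The median was -0.44, beside -0.0014 for all genes. Scaled reads were lower in 45 of the 56 members, 7 of which had equal reads before scaling in a larger library, and higher in 10, beside 42.6% lower and 44.4% higher among all genes of the table. The ratio of summed reads was 0.627 (0.594 to 0.662) for the listed genes and 0.656 (0.594 to 0.724) for the others. By type, it was 0.705 for H1 (0.636 to 0.782), 0.523 for H2A (0.480 to 0.570), 0.692 for H2B (0.638 to 0.75), 0.808 for H3 with an interval that included 1 (0.624 to 1.04), and 0.626 for H4 (0.528 to 0.741). SP2509, UNC0642 and their combination were compared with the same vehicle library, so that their values stand side by side and were not compared with each other.

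The 4 most abundant members were all lower with UNC0642. HIST1H2AC went from 953 to 509 reads, a ratio of 0.468 (0.419 to 0.521). HIST3H2A had a ratio of 0.537 (0.453 to 0.634), HIST1H1C of 0.712 (0.641 to 0.791) and HIST1H2BK of 0.702 (0.624 to 0.789). Of the H2B genes, HIST1H2BJ went from 5.44 to 2.24 FPKM, a ratio of 0.411 (0.272 to 0.611), and HIST1H2BO from 19 to 6 reads, a ratio of 0.276 (0.0904 to 0.720). HIST1H2BH, at a ratio of 0.653 (0.514 to 0.827), and HIST3H2BB, at 0.530 (0.399 to 0.702), were lower too. Of the H3 and H4 genes, HIST1H3H had 51 reads in both libraries and was not called, and HIST1H4K was called lower on 15 and 11 reads, with an interval of 0.267 to 1.496. The H3 gene HIST1H3C was called lower on 10 and 7 reads. Its vehicle library, at 1.55 FPKM, helped it pass the filter. The 2 members called higher were H2A genes with few reads, HIST1H2AJ with 5 and 18 and HIST2H2AC with 17 and 31. HIST1H2AJ, at 0.825 FPKM with vehicle, passed the filter through libraries where it was high.

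With both inhibitors, the members went in different directions. Of the 19, 9 were higher (47.4%) and 5 lower (26.3%), beside 29.0% higher and 31.4% lower among all genes. The median was 0.18, beside -0.03 for all genes. Scaled reads were lower in 30 of the 56 members and higher in 25, beside 42.8% and 48.4% of all genes of the table. Of the 8 listed genes tested 7 were higher and 1 lower, and of the 11 other members tested 2 were higher and 4 lower. The list was drawn up with earlier results of these data known, so that this contrast is a description only. The 4 lower calls of the other members include HIST1H2AJ on 5 and 1 reads, HIST1H3C on 10 and 5, and HIST2H2AC on 17 and 5. HIST1H2AJ was at 0.825 FPKM with vehicle and passed the filter through the SP2509 and UNC0642 libraries. The vehicle library of HIST1H3C, at 1.55 FPKM, helped it pass. Summed levels of the listed genes went from 201 to 313 RPM, a ratio of 1.56 (1.49 to 1.63), and those of the others from 60.02 to 64.8, a ratio of 1.0798 with an interval that included 1 (0.989 to 1.18). By type, the ratio was 1.75 for H1 (1.605 to 1.90), 1.10 for H2A (1.02 to 1.18), 1.499 for H2B (1.40 to 1.61), 0.849 for H3 (0.656 to 1.10) and 2.23 for H4 (1.96 to 2.54). Several of these values rest on single genes. Without HIST1H4H the H4 ratio was 1.11, with an interval that included 1 (0.938 to 1.31), without HIST1H1C the H1 ratio was 0.309 (0.135 to 0.65), and without HIST1H2AC the H2A ratio was 1.796 (1.61 to 2.01).

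The H4 gene HIST1H4H went from 2.15 FPKM with vehicle, 0.779 with SP2509 and 1.71 with UNC0642 to 13.4 FPKM with both. Its 73 and 488 reads gave a ratio of 6.20 (4.84 to 8.05) to vehicle. The H2A gene HIST2H2AA3 had 10, 14 and 13 reads in the first 3 libraries and 98 with both compounds, a ratio of 9.09 (4.74 to 19.6). Its identical copy HIST2H2AA4, below the filter, went from 4 to 18 reads. HIST2H2BE had a ratio of 2.28 (1.89 to 2.77), HIST1H2BC of 2.01 (1.47 to 2.77), HIST3H2A of 1.84 (1.63 to 2.09), HIST1H1C of 1.80 (1.65 to 1.96) and HIST1H2BK of 1.57 (1.42 to 1.73).

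Of the 8 listed genes tested, HIST1H2AC was the 1 called lower with both compounds, from 953 to 765 reads, a ratio of 0.745 (0.676 to 0.820). HIST1H2BH remained lower than vehicle with 81 reads, a ratio of 0.445 (0.337 to 0.583). HIST2H2AC went from 17 to 5 reads, a ratio of 0.273 (0.0787 to 0.771). Among members below the filter, HIST1H1B, an H1 gene, had 14 reads with vehicle and 0 with both, which is at least 5.03-fold lower when 3 reads are taken as the floor. HIST3H2BB, lower with either compound alone, was not called with both, at a ratio of 1.16 (0.9253 to 1.47).

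**Figure D4:**
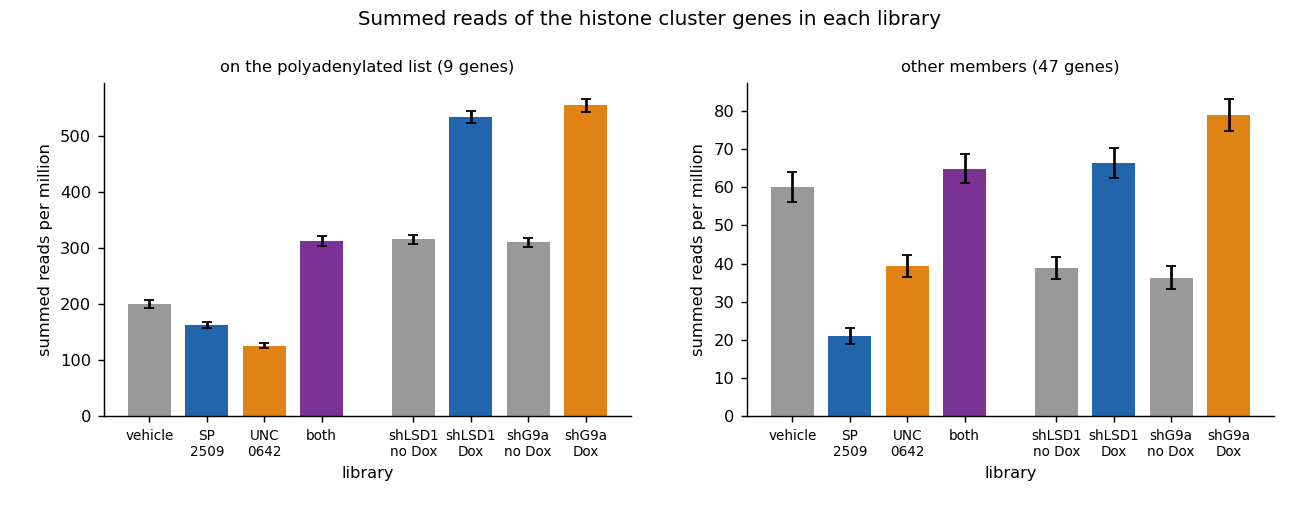
Summed reads in RPM (reads scaled by the library total) of the 9 members on the polyadenylated list (left) and of the 47 others (right) in each library, with exact Poisson 95% intervals that cover counting error only. Grey bars are controls, and "both" is SP2509 with UNC0642. The other members are lowest with SP2509 at 20.9 RPM, and both sets are higher with Dox than without it in both lines.

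With knockdown of LSD1, histone cluster genes were mostly higher than in the same line without Dox. Of 22 members tested, 13 were higher (59.1%) and 0 lower, beside 23.7% higher and 11.2% lower among all 12229 genes tested. The median was 0.56, beside 0.12 for all genes. Scaled reads were higher in 40 of the 54 members, 3 of which had equal reads before scaling, and lower in 10, beside 54.0% higher and 36.0% lower among all 28942 genes of the table. Of the 22 members, 6 were below 1 FPKM in the control and so passed the filter through other libraries, and 3 of these were called higher. Summed levels of the listed genes went from 316 to 534 RPM, a ratio of 1.69 (1.64 to 1.75), and those of the other 45 from 38.8 to 66.3, a ratio of 1.71 (1.55 to 1.88). By type, the ratio was 1.33 for H1 (1.26 to 1.41), 1.67 for H2A (1.59 to 1.76), 2.19 for H2B (2.06 to 2.34), 2.31 for H3 (1.74 to 3.10) and 2.19 for H4 (1.90 to 2.53). The H2A value rests on HIST1H2AC, without which it was 1.09, with an interval that included 1 (0.996 to 1.18), and without HIST1H1C the H1 ratio was 1.69 (0.912 to 3.22).

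The members with the largest changes in this line encode H2B. HIST1H2BO, which was below 1 FPKM in this control and passed the filter through libraries where it was high, went from 6 to 49 reads, a ratio of 8.28 (3.54 to 23.7). HIST1H2BJ went from 38 to 168 reads, a ratio of 4.48 (3.14 to 6.56). HIST1H2BC had a ratio of 2.89 (2.07 to 4.11) and HIST1H2BK of 2.56 (2.34 to 2.80). HIST1H2AC had 1233 reads without and 2629 with Dox, a ratio of 2.16 (2.02 to 2.32), while HIST3H2A was not called and had a ratio of 1.07 (0.975 to 1.17). Of the H3 and H4 genes, HIST1H3H had a ratio of 2.71 (1.84 to 4.07), HIST1H4H of 2.59 (2.04 to 3.32) and HIST1H4I of 2.03 (1.601 to 2.58). HIST1H1C, with 2284 and 2997 reads, was called higher at a ratio of 1.33 (1.26 to 1.41). The lowest changes were those of HIST1H2AI, HIST2H2AC and HIST1H2BL, whose intervals all included 1.

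With knockdown of G9a, most members tested were higher too. Of the 22 members, 18 were higher (81.8%) and 1 lower, beside 31.0% higher and 17.2% lower among all genes. The median was 0.91, beside 0.16 for all genes. Scaled reads were higher in 46 of the 54 members and lower in 7, beside 54.8% and 36.0% of all genes of the table. All 4 members that were below 1 FPKM in the control were called higher, and had to pass the filter through other libraries. The ratio of summed reads was 1.79 (1.73 to 1.85) for the listed genes and 2.18 (1.98 to 2.40) for the others. By type, it was 1.10 for H1 (1.04 to 1.17), 1.56 for H2A (1.47 to 1.65), 3.10 for H2B (2.92 to 3.30), 2.96 for H3 (2.29 to 3.86) and 2.84 for H4 (2.46 to 3.30). Without HIST1H2BK the H2B ratio was 1.997 (1.83 to 2.19), and without HIST1H2AC the H2A ratio was 1.0994 (1.006 to 1.201). The H1 value is nearly that of HIST1H1C, and without it the H1 ratio was 1.35 with an interval that included 1 (0.609 to 3.10).

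HIST1H2BK went from 631 to 2874 reads, a ratio of 4.35 (3.99 to 4.75). HIST1H2BC went from 4.78 to 21.7 FPKM, a ratio of 4.53 (3.46 to 6.0), and HIST1H2BJ from 2.80 to 9.60 FPKM, a ratio of 3.43 (2.44 to 4.91). The H4 gene HIST1H4I went from 101 to 354 reads, a ratio of 3.35 (2.68 to 4.22), and the H3 gene HIST1H3H from 42 to 148 reads, a ratio of 3.37 (2.37 to 4.86). HIST1H2AC had a ratio of 1.97 (1.83 to 2.13) and HIST2H2BE of 1.71 (1.498 to 1.96). HIST1H1C (1.10, 1.04 to 1.17) and HIST3H2A (0.990, 0.8999 to 1.09) were not called. HIST3H2BB, the head-to-head partner of HIST3H2A, was the 1 member called lower, from 83 to 40 reads, a ratio of 0.460 (0.307 to 0.679). In the shLSD1 line HIST3H2BB was called higher, from 130 to 194 reads, a ratio of 1.51 (1.21 to 1.90). Below the filter, HIST1H4C had 0 reads without and 12 with Dox, at least 3.82-fold higher with 3 reads as the floor.

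**Figure D5:**
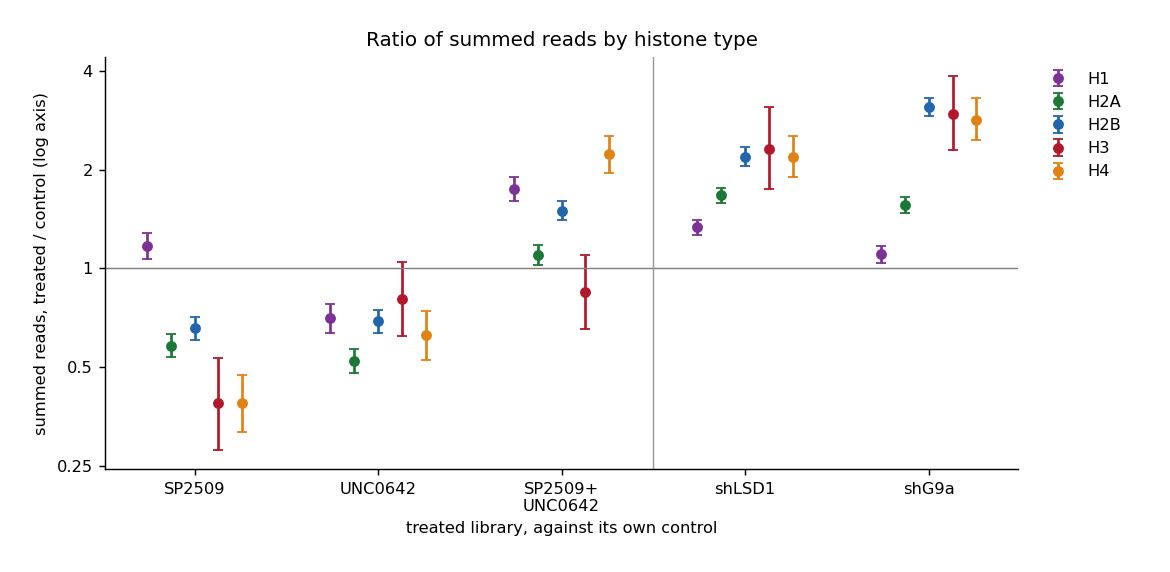
Ratio of summed reads, treated over its own control, for all members of each histone type in the table in the 5 comparisons (log axis), with Clopper-Pearson 95% intervals that cover counting error only. The line at 1 marks equal reads per library total. With SP2509 and UNC0642 every type except H1 with SP2509 lies below 1, although the interval of H3 with UNC0642 includes it and H1 with SP2509 rests on HIST1H1C (0.264 without it), and in both knockdowns every type lies above it.

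Inhibition and knockdown of the same enzyme were set side by side, since they share no library. Among the members tested, 63.2% were lower with SP2509 and 57.9% with UNC0642. In the knockdowns, 59.1% were higher for LSD1 and 81.8% for G9a. Overlaps of calls arise from such rates alone, and whether those below differ from what the rates give was not tested. Of 19 members tested in both tables, 7 were lower with SP2509 and higher with knockdown of LSD1, beside 13.8% of all 11241 genes tested in both. These were HIST1H2AC, HIST1H2BJ, HIST1H2BO, HIST1H3H, HIST1H4H, HIST1H4I and HIST3H2BB, which are 58.3% of the members called lower with SP2509 and 53.8% of those called higher in the knockdown. HIST1H2BO was below 1 FPKM in the knockdown's control, as said of its ratio. No member was lower in both, and HIST1H2AJ was higher in both. HIST1H2AJ was below 1 FPKM in both controls (0.825 and 0.873 FPKM) and passed the filters through libraries where it was high. For G9a, 8 of the 19 were lower with UNC0642 and higher in the knockdown, beside 3.37% of all genes. They were HIST1H2AC, HIST1H2AI, HIST1H2BH, HIST1H2BJ, HIST1H2BK, HIST1H2BO, HIST1H3C and HIST1H4K, which are 72.7% of the lower and 44.4% of the higher calls. Of these 8, HIST1H3C was at 0.736 FPKM in the shG9a control and passed the knockdown filter through its induced library (3.23 FPKM). Its call with UNC0642 rests on 10 and 7 reads. In the inhibitor table HIST1H3C was at 1.55 FPKM with vehicle, 1.23 under SP2509, 0.952 under UNC0642 and 0.721 under both. Its high vehicle library, the control of the call, thus helped it pass that filter. HIST3H2BB was lower with UNC0642 and in the knockdown. Across the knockdowns, 11 of the 22 members were higher in both lines, beside 13.5% of all genes, and these were 84.6% of the higher calls in the shLSD1 line and 61.1% of those in the shG9a line. They include HIST1H2AJ, HIST1H2BO and HIST1H4J, which were at 0.873, 0.887 and 0.604 FPKM in the shLSD1 control and passed the filter through other libraries. HIST1H4J was below 1 FPKM in the shG9a control too (0.810).

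Genes with roles next to the histone genes were examined from lists written from general knowledge. The shares of all genes called stand beside each count. Of 24 S phase genes tested, 14 were lower and 2 higher with SP2509 (38.1% and 19.3% of all genes), 1 lower and 8 higher with UNC0642 (14.8% and 17.8%), and 6 lower and 11 higher with both (31.4% and 29.0%). With Dox, 16 were higher in the shLSD1 line (23.7%) and 20 in the shG9a line (31.0%), and none of the 24 was lower in either (11.2% and 17.2%). The list's median was -0.49 under SP2509, 0.25 under UNC0642 and 0.29 under both, 0.50 in the shLSD1 line and 0.80 in the shG9a line. PCNA, the sliding clamp of DNA polymerase, was at 60.2 FPKM with vehicle, 21.1 under SP2509, 108 under UNC0642 and 144 under both. In the shLSD1 line PCNA was at 22.9 FPKM without and 43.4 with Dox, and in the shG9a line at 28.3 and 76.3. FEN1, which processes Okazaki fragments, was at 16.2, 5.19, 31.8 and 62.1 FPKM in the inhibitor libraries in the same order. With UNC0642 the median of the S phase genes was above 0 and that of the histone cluster genes tested below it (-0.44). In the other 4 comparisons the medians of the 2 sets had the same sign. For the combination of inhibitors this held only with the filter, since the median over all 56 members was -0.05. The part of S phase content in the members' changes was not tested.

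Of 24 genes for the transcription and 3′ processing of histone mRNA tested in the inhibitor table, 11 were lower and 1 higher with SP2509 (38.1% and 19.3% of all genes), 3 lower and 6 higher with UNC0642 (14.8% and 17.8%), and 4 lower and 10 higher with both (31.4% and 29.0%). Of 21 tested in the knockdown table, 7 were higher and 1 lower in the shLSD1 line (23.7% and 11.2%), and 12 were higher and 0 lower in the shG9a line (31.0% and 17.2%). SLBP, which binds the stem-loop, was at 19.4 FPKM with vehicle, 16.6 under SP2509, 28.6 under UNC0642 and 39.6 under both. With Dox it went from 14.1 to 14.8 FPKM in the shLSD1 line, which was not called, and from 14.7 to 19.9 in the shG9a line. LSM10, a subunit of the U7 snRNP, was lower with SP2509, at 9.86 and 3.15 FPKM and a ratio of 0.320 (0.246 to 0.412). NPAT, which activates histone transcription, was at 2.39 FPKM with vehicle and 2.83 with SP2509, which was not called. CCNE1, the cyclin that acts on NPAT with CDK2, was at 1.002, 0.308, 3.46 and 7.64 FPKM in the inhibitor libraries, and at 0.906 and 1.39 FPKM without and with Dox for shLSD1 and at 1.09 and 4.96 for shG9a.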

How the data were processed

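RNA-seq (paired reads of 150 bases, total RNA) was done on 8 Kyse510 libraries, grouped by their labels. The authors deposited FPKM per gene in 2 tables, normalised separately, on the build GRCh38 per the submitters' processing notes. The aligner, the counter, strand use and the RNA selection are not given in the sources used here. Library totals and reads were recovered from the steps between FPKM values. Genes with 1 annotated exon that matched the deposited span kept its length where their values were whole within 0.01 reads. Other genes took the smallest length of at least 50 bases that gave whole reads in every library, within the error of the printed digits. Where no length served both tables, each table had its own. Reads of genes with several exons rest on these lengths, and recovered gene reads made up 99.6% to 99.8% of the totals. Changes were taken as log2 of the ratio of FPKM + 1 among genes with a mean of at least 1 FPKM over the 4 libraries of a table and called at 1.3-fold, with no p-value since each condition has 1 library. Ratios of reads have Clopper-Pearson intervals, and levels have Poisson ones. Scripts were tested on simulated data. Stem-loops came from GENCODE 44, with 52 members matched by gene ID and 4 by current symbol, and promoters from RefSeq GRCh38.p14. The genes named were the 3 highest of each histone type, the 3 largest changes each way in each comparison, the members of the polyadenylated list, and genes of the other lists. HIST1H2AH, HIST1H4C, HIST2H2AA4, HIST2H4A and HIST4H4 lie outside that rule and were chosen after their values were seen, and a few others are named for their sequence or place alone. HIST1H4J lies outside the rule too, and was named also for its calls and control levels in the knockdowns. Members and lists were chosen with earlier results of these data known. Alternatives were the pseudocount, filter, threshold, centring, a shared uninduced control and, added after seeing the data, leaving out members with identical copies or overlaps. Tools were Python 3.11.15, numpy 2.4.6, pandas 2.3.3, scipy 1.17.1 and matplotlib 3.10.9.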

Additional observations from a re-analysis of the deposited data

Results flagged for a closer look

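HIST3H2BB, an H2B gene, went in opposite directions in the 2 hairpin lines: its log2 change with Dox was 0.47 in the shLSD1 line (3.10 to 4.69 FPKM) and -0.66 in the shG9a line (2.12 to 0.977 FPKM). With 1 library per condition the difference between the lines was not tested. Its partner across the shared start region, HIST3H2A, changed by 0.09 and -0.01 on the same scale.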

How the results depend on the processing

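Counts of calls and medians were recomputed under other settings, and 75 of 101 values stayed within their limits and 26 moved. The median with both inhibitors changed sign, from 0.18 to -0.05, when no filter was used. The next counts were taken without a filter on low values, over all 56 or 54 members, with shares of all genes in brackets. With SP2509 29 were lower (21.7%). With UNC0642 4 were higher and 22 lower (10.7% and 9.51%), and with both 14 were higher and 14 lower (18.9% and 17.5%). With knockdown of LSD1 21 were higher (13.9%). With knockdown of G9a 29 were higher and 2 lower (19.0% and 10.2%), and the median was 0.44. With at least 1 FPKM required in 1 of the compared libraries, 20 of 27 were lower with SP2509 (39.9%) and 17 of 27 with UNC0642 (16.9%). With both, 8 of 29 were lower under that filter (31.7%). At 2-fold, the counts higher and lower were 0 and 4 with SP2509 (6.64% and 11.9% of all genes), 0 and 2 with UNC0642 (4.15% and 2.26%) and 3 and 1 with both (11.1% and 9.12%). In the knockdowns 7 were higher with LSD1 (2.69%), and 9 higher and 0 lower with G9a (4.22% and 5.72%). With an exact binomial p under 0.05 as well, 0 were higher with SP2509 (18.0%), 1 with UNC0642 (16.1%), and 3 lower with both (29.8%). Under that limit, which covers counting error only, lower calls went from 12 to 10 with SP2509 (36.8%). With UNC0642 they went from 11 to 8 (13.1%). A pseudocount of 0.1 and centring on genes of at least 5 FPKM each gave 2 lower with knockdown of G9a (19.5% and 22.8% of all genes). Leaving out the 14 members with an identical copy or an overlapping gene, chosen after seeing the data, and using the mean of both uninduced libraries as control moved none of the values. No paired analysis was possible because each condition has 1 library. In the 22 members under 10 reads in every library, 5 of 106 differences had an interval that excluded 1, each with 0 reads in 1 library. HIST1H1C alone moved summed ratios: without it the ratio over all members went from 0.704 to 0.583 with SP2509 and from 1.83 to 2.24 with knockdown of G9a. How RNA was selected limits what the levels of genes off the polyadenylated list stand for.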

Other observations

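Genes outside the clusters that were listed from general knowledge as replication-independent histone variants were measured at higher levels than most cluster genes. How far each of them is independent of replication in these cells was not tested. Of 10 tested, 6 were lower and 0 higher with SP2509 (38.1% and 19.3% of all genes), 0 were past 1.3-fold with UNC0642 (14.8% lower and 17.8% higher), and 3 were higher and 2 lower with both (29.0% and 31.4%). With knockdown of LSD1 4 were higher and 1 lower (23.7% and 11.2%), and with knockdown of G9a 4 were higher and 3 lower (31.0% and 17.2%). H2AFX, the variant phosphorylated at DNA breaks, was at 24.2 FPKM with vehicle, 5.19 under SP2509, 25.5 under UNC0642 and 29.1 under both. Without and with Dox it was at 9.91 and 30.8 FPKM for shLSD1 and at 12.1 and 37.0 FPKM for shG9a. The H3.3 genes differed from each other with knockdown of G9a, where H3F3A had a log2 change of 1.25 and H3F3B of -0.39. The linker variant H1F0 went from 480 to 162 FPKM with knockdown of G9a (ratio 0.337, 0.328 to 0.347) and from 472 to 425 FPKM with knockdown of LSD1.

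Of 21 histone chaperones tested with the inhibitors, 10 were lower and 2 higher with SP2509, 1 lower and 3 higher with UNC0642, and 5 lower and 4 higher with both, beside the same shares of all genes. Of 20 tested in the knockdowns, 5 were higher with knockdown of LSD1, a share close to the 23.7% of all genes, 14 were higher with knockdown of G9a (31.0%), and 0 were lower in either. ASF1A and ASF1B both carry H3 and H4 to new chromatin. With both inhibitors ASF1A was lower than with vehicle, at 21.1 and 4.59 FPKM, and ASF1B was higher, at 12.1 and 35.3 FPKM. HJURP, which deposits the centromeric variant CENPA, was higher with SP2509, at 16.4 and 33.3 FPKM, while CENPA was lower, at 14.6 and 10.9 FPKM. Of 16 RNAs known to lack a poly(A) tail, 4 were listed and 2 passed the filter. RN7SL2, of the signal recognition particle, was at 45.5 FPKM with vehicle, 71.1 under SP2509, 29.3 under UNC0642 and 29.8 under both. SNORA73B, a small nucleolar RNA, was at 7.20 FPKM with vehicle and 0.551 with SP2509.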
